A study of Mus musculus with 7 samples.

Results

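Myod1, Myog, Myf5, Mef2c and Srf, 5 transcription factors of muscle, were followed in soleus muscle of wild-type mice of the 129/SV strain. They are the 5 genes with these symbols in the annotation of the array, out of 203 named genes, and each had 1 spot. The series holds 7 samples of 1 group, cage controls, with 1 array each, and soleus is a hindlimb muscle rich in slow, oxidative fibres. The labels name no animal for a sample, and only the titles differ, so the p-values measure the spread between these samples, which may be partly technical. No source used here gives age or sex, and total RNA came from cryosections of the muscle belly, a bulk sample in which fewer cells of a type and less RNA per cell cannot be told apart. Per the labels, cDNA was made from the RNA with gene-specific primers and a radioactive nucleotide, which lets primer and probe set part of a spot's level. Each gene was set against the floor of its own array, which is the same for all genes and removes no effect of primer or probe. Where spots of different genes are set side by side below, the order of the spots is not an order of the transcripts.

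The factors fall into groups with different known roles. Myod1 (MyoD) and Myf5 commit precursor cells to the muscle lineage, and Myog (myogenin) drives their differentiation into fibres. All 3 are basic helix-loop-helix proteins that bind the E-box, and their transcripts are known to be low in resting adult muscle and to rise when muscle regenerates or loses its nerve. Mef2c and Srf encode MADS-box proteins that stay in use in mature fibres. MEF2C binds an AT-rich site together with the determination factors and is linked to slow fibre genes, and SRF binds the CArG box of actin and other contractile and cytoskeletal genes.

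The binding sites of these families are shown here because the factors are known to act on their own promoters and on each other's. In RefSeq promoter windows of assembly GRCm38.p6, which run from 250 bases before to 50 bases after a start site, 4 of the 5 genes had a window, 1 each for Myog, Myf5 and Srf and 3 for Mef2c. Motifs were searched on both strands, and the letters of the match are in capitals. The E-box, CANNTG, matched at 2 places in the Myog window, 138 and 12 bases before the start site, on the plus strand at chr1:134289854-134289883 and chr1:134289980-134290009. The CArG box matched at 2 places in the Srf window, 82 and 62 bases before the start site, on the minus strand at chr17:46556225-46556254 and chr17:46556205-46556234.
Myog E-box 1: gggaaggggaatCACATGtaatccactgga
Myog E-box 2: aatggcacccagCAGTTGgtgtgaggggct
Srf CArG box 1: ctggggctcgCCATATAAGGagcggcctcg
Srf CArG box 2: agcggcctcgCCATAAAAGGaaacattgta
An E-box was found in 72.3% of the 32851 windows of all genes, a CArG box in 1.63% and the MEF2 site in 3.19%. Among the Mef2c windows there were 2 E-boxes in the first, 0 in the second and 1 in the third, and the Myf5 window held 0 matches to any of these motifs. A match is a run of letters and no binding was measured in these samples.

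The authors deposited each value as a linear ratio. It is printed here in percent of the array's total, a sum that leaves out the 28S ribosomal RNA spot and spot 1M. The floor of an array is the 10th percentile of its 223 spots. It lay at 0.13% in replicate 1, 0.06% in replicates 2 and 6, 0.05% in replicate 3, 0.03% in replicate 4, 0.02% in replicate 5 and 0.09% in replicate 7, a 6.5-fold range between arrays. Replicate 5, whose title carries the code C16 in place of C15, had the lowest floor, and no source used here says what the codes mean. Most values are rounded to steps of 0.01%, so ratios to a low floor are coarse. Muscle fibre genes served as a check that the tissue was muscle. All 9 on the array, among them slow myosin heavy chain Myh7 and the fast heavy chains Myh2 and Myh1, exceeded 2 times the floor on all 7 arrays. With no other muscle in the series, this does not check the label of soleus in particular.

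The 3 determination and differentiation factors lay at or near the floor on most arrays, and Mef2c and Srf lay above 2 times the floor on every array. In the limma fit over all genes, 2 of the 5 factors, Mef2c and Srf, were above 2 times the floor on average, as were 26.1% of the 203 genes. The other 3, Myod1, Myog and Myf5, were below it, as were 39.4% of genes, and 70 genes were not called. Counted array by array, the same 2 of 5 exceeded 2 times the floor on all 7 arrays, against 21.7% of genes. The median gene had a mean log2 signal over floor of 0.84.

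**Figure D1:**
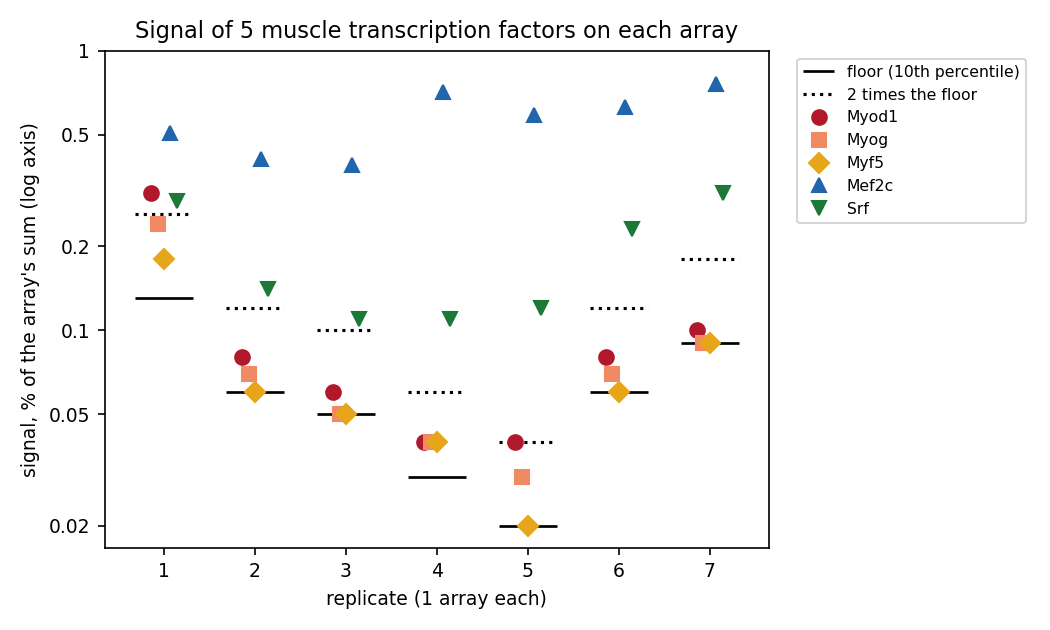
Signal of the 5 factors on each of the 7 arrays, in percent of the array's total on a log axis. Solid bars mark the floor of each array (10th percentile of its spots) and dotted bars 2 times the floor. Mef2c and Srf lie above every dotted bar, and Myod1, Myog and Myf5 lie under them apart from Myod1 in replicate 1, at 0.31%, and in replicate 5, where Myod1 is on the bar.

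Myod1, the determination factor that can convert other cells to muscle, had a signal of 0.31% in replicate 1, 0.08% in replicate 2, 0.06% in replicate 3, 0.04% in replicates 4 and 5, 0.08% in replicate 6 and 0.10% in replicate 7. Replicate 1 was high and the other 6 lay together, with a mean over all samples of 0.101% ± 0.0946 (SD, n = 7). Against the floor it stood at 2.38 in replicate 1, at 2.0 in replicate 5 and between 1.11 and 1.33 in the others, so it exceeded 2 times the floor on 1 of 7 arrays. In replicate 5 the rounding of both values allows a ratio from 1.4 to 3.0. In replicate 1, 79.4% of the spots were lower than Myod1, beside 74.4% lower than Srf there. On the other arrays 10.8% to 29.6% were lower than Myod1. Its mean lay below 2 times the floor by a log2 difference of -0.44 ± 0.15 (SE; limma, adjusted p = 0.0297). That call was lost without replicate 2, 3, 4, 6 or 7 (limma, adjusted p from 0.0698 to 0.0801) and with the floor at the 5th percentile (adjusted p = 0.0568). It was also lost with quantile normalization (adjusted p = 0.0594), so the position of Myod1 relative to 2 times the floor is the least certain of the 5.

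Myog, the factor of fibre differentiation, had 0.24% in replicate 1, 0.07% in replicates 2 and 6, 0.05% in replicate 3, 0.04% in replicate 4, 0.03% in replicate 5 and 0.09% in replicate 7. The high sample was again replicate 1, and the mean was 0.0843% ± 0.0716 (SD, n = 7). Its ratio to the floor ran from 1.0 in replicates 3 and 7 to 1.85 in replicate 1, and it exceeded 2 times the floor on 0 of 7 arrays, as did 36.5% of genes. In replicate 5, where its ratio was 1.5, rounding allows 1.0 to 2.33. In replicate 1, 65.9% of the spots were lower than Myog, and on the other arrays 6.3% to 18.4% were. The mean was below 2 times the floor by a log2 difference of -0.67 ± 0.13 (SE; limma, adjusted p = 0.00177). Against 1.5 times the floor the log2 difference of -0.25 did not pass (limma, adjusted p = 0.129).

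Myf5, which acts earliest of these in the muscle lineage and marks many satellite cells, had 0.18% in replicate 1, 0.06% in replicates 2 and 6, 0.05% in replicate 3, 0.04% in replicate 4, 0.02% in replicate 5 and 0.09% in replicate 7. On 5 of the 7 arrays this is the floor itself, and the ratio was 1.38 in replicate 1 and 1.33 in replicate 4. In replicate 1, 39.0% of the spots were strictly lower than Myf5, and on the other arrays 0% to 10.8% were. The mean, 0.0714% ± 0.0524 (SD, n = 7), was below 2 times the floor by a log2 difference of -0.87 ± 0.11 (SE; limma, adjusted p = 0.000119). A floor-level signal sets no limit on the transcript itself, since the files hold no background reading and 1 spot cannot show how well its primer and probe worked.

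Mef2c had 0.51% in replicate 1, 0.41% in replicate 2, 0.39% in replicate 3, 0.71% in replicate 4, 0.59% in replicate 5, 0.63% in replicate 6 and 0.76% in replicate 7. Replicates 2 and 3 were lowest and replicates 4 and 7 highest, a 1.95-fold range, with a mean of 0.571% ± 0.142 (SD, n = 7). The ratio to the floor was lowest in replicate 1, at 3.92, and highest in replicate 5, at 29.5, a 7.52-fold range that is wider than that of the signal itself. The mean was above 2 times the floor by a log2 difference of 2.38 ± 0.33 (SE; limma, adjusted p = 0.000252), and it was also called above 3 times the floor. Mef2c kept a steady place on the array, with 85.2% to 90.6% of spots lower than it in all samples.

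Srf had 0.29% in replicate 1, 0.14% in replicate 2, 0.11% in replicates 3 and 4, 0.12% in replicate 5, 0.23% in replicate 6 and 0.31% in replicate 7. Replicates 1, 6 and 7 were high and the other 4 lay within 0.03 percentage points of each other, with a mean of 0.187% ± 0.0877 (SD, n = 7). Its ratio to the floor was 2.2 in replicate 3, the lowest, where rounding allows 1.91 to 2.56, and 6.0 in replicate 5, the highest. The mean was above 2 times the floor by a log2 difference of 0.67 ± 0.19 (SE; limma, adjusted p = 0.0116), and against 3 times the floor it did not pass (log2 difference 0.09, limma, adjusted p = 0.679). From 69.5% to 79.4% of spots were lower than Srf. In replicate 1 Srf stood at 2.23 times the floor beside Myod1 at 2.38, the only array on which a determination factor also exceeded 2 times the floor.

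Of the 3 arrays on which the signal of Srf was high, replicates 1 and 7 had the highest floors and the highest summed signal of the 6 endothelial markers on the array, and replicate 6 had a floor of 0.06%. The endothelial sum reached 1.19% in replicate 1 and 1.15% in replicate 7, and the other samples had 0.50% to 0.77%, the highest of these in replicate 6. Relative to the floor the order differed: the mean endothelial marker stood at 1.53 times the floor in replicate 1, 2.13 in replicate 7 and 4.75 in replicate 5, the highest. Of the 6, Cdh5 and Pecam1, the endothelial cadherin and adhesion molecule, were called above 2 times the floor, Tek and Nos3 below it, and Kdr and Flt1 were not called. The 2 immune genes, Il1b and Il6, were both called below 2 times the floor, and their sum was 0.43% in replicate 1, 0.29% in replicate 7 and 0.05% to 0.15% elsewhere, with 0.12% in replicate 6. The 5 fibroblast and matrix markers summed to 0.889% in replicate 1, 0.998% in replicate 7 and 0.282% to 0.565% elsewhere. Relative to the floor their mean was lowest in replicate 1, at 1.37, and highest in replicate 5, at 2.82. Fn1 was called below, and Tnc, Timp1, Mmp2 and Pdgfra were not called. Fn1 was averaged over spot 4D, at 0.80 to 1.33 times the floor, and spot 9D, at 1.44 to 4.5. The 2 adipocyte markers, Fabp4 called above and Pparg called below, summed to 0.43% to 0.70%. No marker on the array was listed at 0. The part of these cells, and of the floor, in the values of the 5 factors was not tested.

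**Figure D2:**
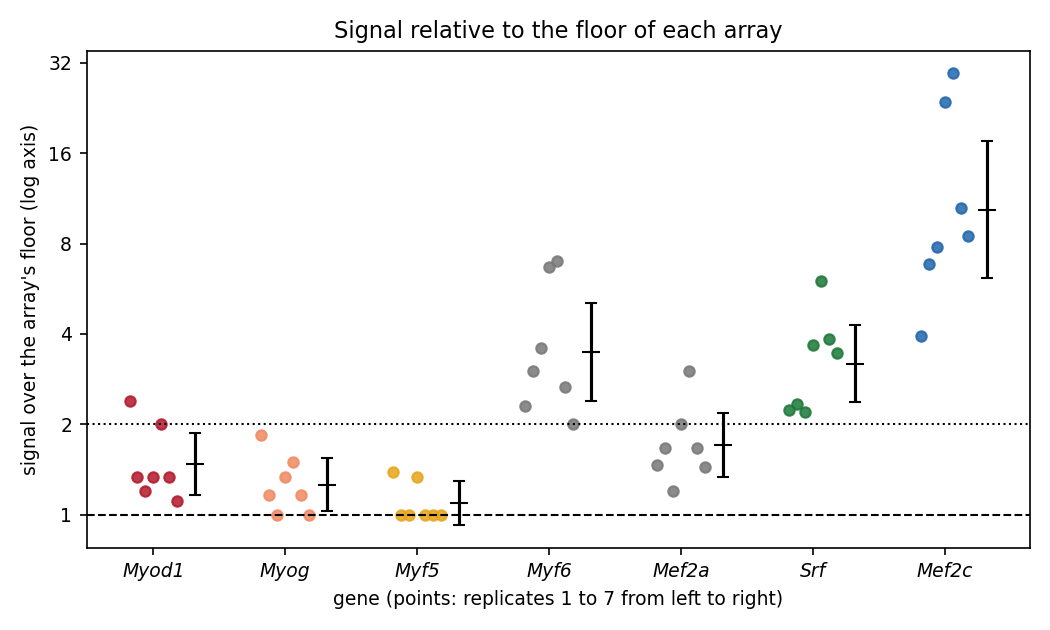
Signal divided by the floor of the same array, on a log axis, for the 5 factors and their relatives Myf6 and Mef2a (grey). Points are the 7 arrays, black marks the geometric mean with its 95% interval from limma, the dashed line the floor and the dotted line 2 times the floor. Mef2c spans 3.92 to 29.5 and Srf 2.2 to 6.0, and Myf5 stays between 1.0 and 1.38.

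The relatives of these factors on the array did not all share their position. Myf6 (MRF4), the member of the determination family known to predominate in adult fibres, stood apart from the other 3. Its signal was 0.30% in replicate 1, 0.18% in replicates 2, 3 and 7, 0.20% in replicate 4, 0.14% in replicate 5 and 0.16% in replicate 6. It exceeded 2 times the floor on 6 of 7 arrays and equalled it in replicate 7, and its mean was above by a log2 difference of 0.80 ± 0.24 (SE; limma, adjusted p = 0.0165). Of the 4 genes of the family, Myf6 was thus called above 2 times the floor, and the 3 below are Myod1, Myog and Myf5, already counted. Mef2a, the relative of Mef2c, was at 0.1% ± 0.0480 (SD, n = 7) and was not called (log2 difference -0.23 ± 0.16, SE; limma, adjusted p = 0.232), with 1 of 7 arrays above. In the list of MEF2 and SRF family genes and partners, 3 of 17 were on the array, and these are Mef2c, Mef2a and Srf. The 2 called above are thus factors already counted, and 0 were below, beside 26.1% above and 39.4% below among all genes.

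Other genes of the pathway were spread around the threshold. Of the 13 growth factor genes of muscle formation on the array, 2 were called above 2 times the floor, 4 below and 7 were not called, beside 26.1% above and 39.4% below among all genes. Those above were Igf2, a growth factor that promotes differentiation of myoblasts, at 0.469% ± 0.330 (SD, n = 7), and Igfbp6, a binding protein that prefers it. Those below were Igf1r, Igfbp3, Fgf2 and Insr, and Igf1 was not called (log2 difference 0.22, limma, adjusted p = 0.266). Hgf, which activates satellite cells and is the only one of 12 listed stem cell and somite genes on the array, was below (log2 difference -0.62, limma, adjusted p = 0.00416). Rb1, a cell cycle inhibitor that works with MyoD and the only listed partner on the array, was not called (log2 difference 0.04, limma, adjusted p = 0.844). The listed muscle fibre genes were called above in 9 of 9 cases, with a median log2 signal over floor of 5.47.

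The spots beside each factor belong to other genes with their own primers and probes, so their values are given as a description and do not measure the background there. Mef2c was higher than all 4 spots around it on 7 of 7 arrays. Srf was higher than all 3 of its neighbours, those of Plau, Myog and a spot without a gene name, on 7 of 7. In replicate 3 Srf was at 0.11% and that unnamed spot at 0.10%. In replicate 4, Mef2c was at 0.71% while the spots around it, those of Plaur, Htt, Igf1 and a spot without a gene name, lay between 0.03% and 0.10%. Myog was higher than all 3 spots beside it, those of Myod1, Srf and Mmp8, on 0 of 7 arrays. Myf5 was higher than all 4 beside it, those of Mmp10, Cast, Igf1 and Myf6, on 0 of 7. Myod1 was higher than both of its neighbours, Myog and the protease Mmp12, on 6 of 7, and equal to Myog in replicate 4. In replicate 1 those neighbours were themselves high, at 0.24% and 0.25%, which is 1.85 and 1.92 times the floor of that array. On the other arrays Mmp12 was between 0.89 and 1.0 times the floor. The part of spot position in the value of Myod1 and Myog in replicate 1 was not tested.

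**Figure D3:**
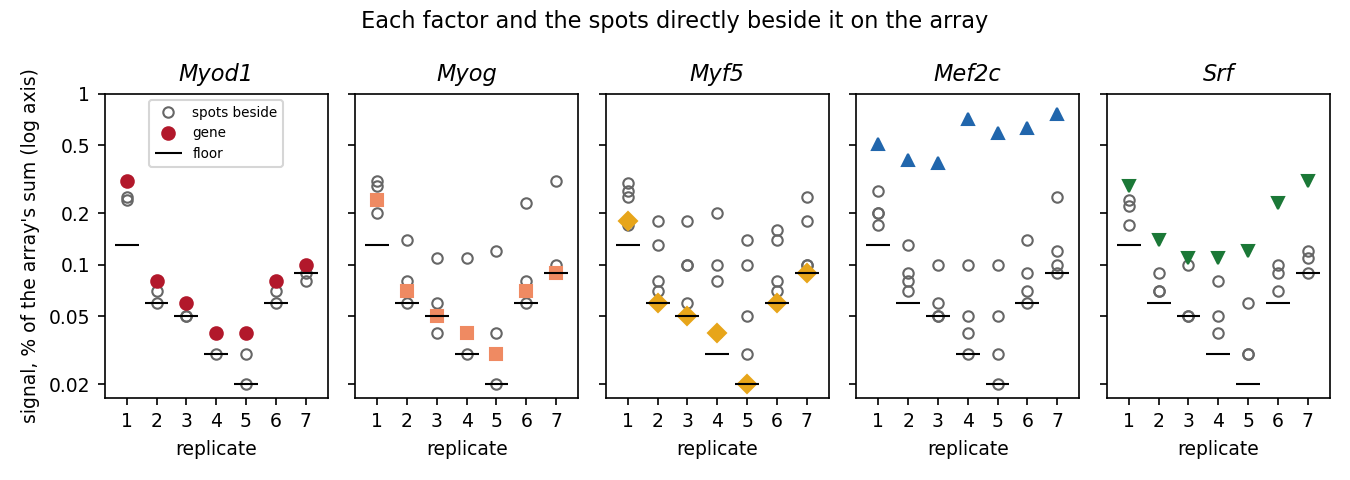
Each factor (filled) with the spots directly beside it on the array (open circles) and the floor (bars), in percent of the array's total on a log axis, for replicates 1 to 7. Mef2c and Srf lie above all neighbouring spots on 7 of 7 arrays, and Myog and Myf5 on 0 of 7. The spots of Myog and Srf are neighbours of each other.

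The spread between samples differed with the scale. On the log2 scale relative to the floor, the SD was 0.41 for Myod1, 0.32 for Myog, 0.22 for Myf5, 1.02 for Mef2c and 0.53 for Srf, against a median of 0.46 over all genes. In the log2 deposited signal it was 1.01, 0.97, 0.98, 0.37 and 0.67 for the same genes, against a median of 0.68. The floor's own log2 values had an SD of 0.91. The SDs of Myod1, Myog and Myf5 were thus smaller after division by the floor, and that of Mef2c was larger.

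Relative to the floor, Myod1 and Myog were both highest in replicates 1 and 5. On the other arrays Myod1 stood at 1.11 to 1.33 and Myog at 1.0 to 1.33 times the floor. In signal, with steps of 0.01%, Myod1 and Myog stood at 0.08% and 0.07% in replicates 2 and 6, and at 0.06% and 0.05% in replicate 3. They stood at 0.10% and 0.09% in replicate 7, and both at 0.04% in replicate 4. Over the 7 samples, Pearson's r of their log2 signal over floor was 0.954 (exact permutation p = 0.00238, adjusted p = 0.0427 over all 20503 pairs of genes). Spearman's rho stood at 0.962, with an exact permutation p of 0.00476 that was 0.0987 after adjustment. By rho, 0 of the 20503 pairs of genes passed. Leaving out replicates 1 and 5, in which Myod1 was farthest from its median, gave r = 0.845. The spots of Myod1 and Myog lie side by side. By r, this pair was the only 1 of the 10 among the 5 factors that passed, where 8.04% of all pairs of genes did. It did not pass without any single replicate (r from 0.892 to 0.990, adjusted exact p from 0.0701 to 0.220), with quantile normalization (r = 0.983, adjusted exact p = 0.381) or with the trend in spot position removed (r = 0.860, adjusted exact p = 0.170). In each of these settings 0 pairs of genes passed.

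Mef2c and Srf had r = 0.855 (exact permutation p = 0.0111, adjusted p = 0.0722) and rho = 0.857 (exact permutation p = 0.0238, adjusted p = 0.161), and 0.712 without replicates 4 and 5. On the deposited log2 scale r was 0.371 and with quantile normalization -0.0425, against 0.575 with array medians taken off and 0.773 with the position trend removed, and the pair passed in none of these. Myog and Myf5 had r = 0.702 (exact permutation p = 0.119, adjusted p = 0.274) and rho = 0.680 (exact permutation p = 0.119, adjusted p = 0.350). Myod1 and Mef2c had r = -0.0618 (exact permutation p = 0.926, adjusted p = 0.961) and rho = -0.0371 (exact permutation p = 0.979). The r of this pair was 0.385 without replicates 1 and 5 and 0.751 without replicate 1 alone. The other 6 pairs, of Myod1 with Myf5 and Srf, Myog with Mef2c and Srf, and Myf5 with Mef2c and Srf, had r from -0.226 to 0.504 (adjusted exact p from 0.335 to 1). Replicate 1 alone moved several of these values. Without it, r was 0.883 for Myog and Mef2c, 0.745 for Myog and Srf, 0.736 for Myod1 and Srf, and -0.0473 for Myod1 and Myf5, and 0 pairs passed. The median r over all pairs of genes was 0.566 on this scale and 0.779 in log2 deposited values.

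The genes whose pattern over the 7 samples was most like each factor were found by the root mean square difference of log2 signal over floor, with each gene centred on its own mean. For Myod1 these were Myog at 0.13 log2 units, Igf1r, the receptor of insulin-like growth factor 1, at 0.15, and the membrane protease Mmp14 at 0.15, against a median of 0.52 over the other genes. For Myog they were Igf1r at 0.04, the kinase Cdk5 at 0.07 and Mmp14 at 0.10. For Myf5 they were the adenosine receptor Adora3, the AP-1 factor Fosl1 and the gelatinase Mmp9 at 0.13 to 0.15. All of these genes exceeded 2 times the floor on 0 of 7 arrays. The spots of Igf1r (16B), Cdk5 (15B) and Mmp14 (21B) carry the same letter as that of Myod1 (23B), and Myog lies beside Myod1 at 23C. The part of spot position in these likenesses was not tested. For Mef2c the closest were the pyruvate dehydrogenase subunit Pdha1 at 0.21, titin (Ttn) at 0.24 and the integrin Itgb1 at 0.26, all above 2 times the floor on 7 of 7 arrays. For Srf they were the cell cycle inhibitor Cdkn2d at 0.13, Igf1 at 0.16 and the endothelial receptor Flt1 at 0.16, which exceeded it on 1, 3 and 1 arrays. Igf1 was averaged over spots 16I and 22H, and the count of 3 is that of 16I, the lower. Spot 22H stood at 2.0 to 5.0 times the floor.

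**Figure D4:**
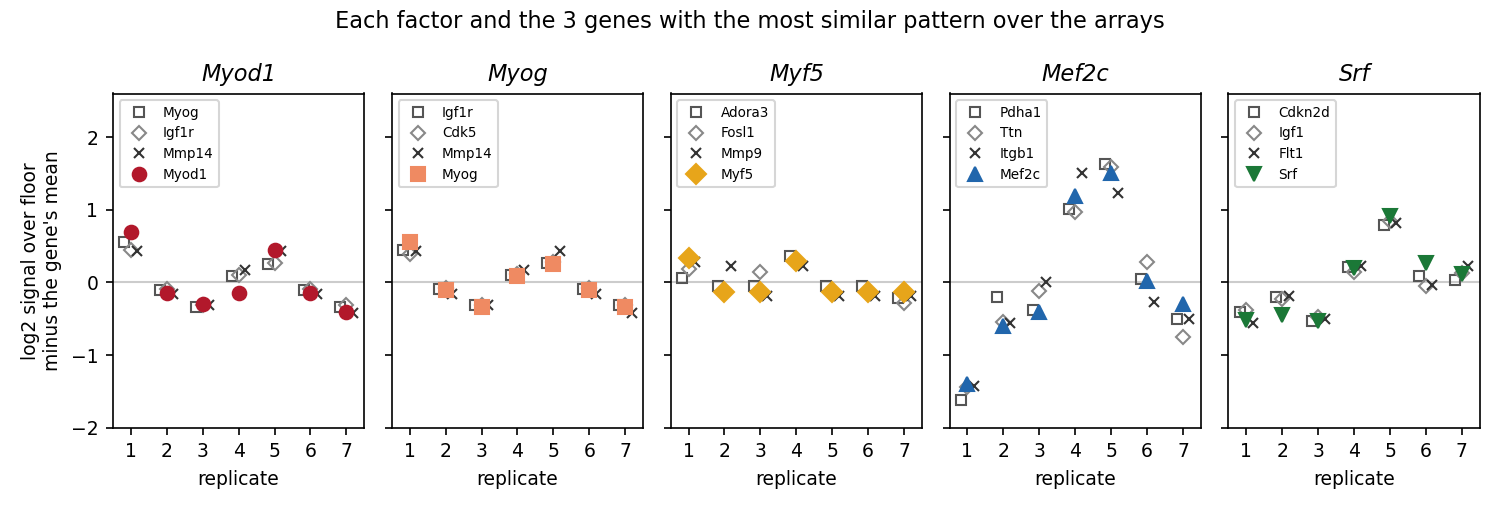
Log2 signal over floor minus each gene's mean over the 7 samples, for each factor (filled) and the 3 genes with the smallest root mean square difference from it (open symbols and crosses). Mef2c and its closest genes are lowest in replicate 1 and high in replicates 4 and 5, the arrays with the lowest floors, while Myod1 and Myog are highest in replicate 1.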

How the data were processed

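The value table of 223 spots and 7 samples holds linear ratios deposited by the authors. Columns sum to between 0.9986 and 1.0002 without spot 1M and the 28S spot, so the ratio was printed as a percent of that sum. Per the labels' protocols, total RNA was labelled with a radioactive nucleotide using gene-specific primers. No source used here names the image analysis, background treatment or software, and precision is limited by there being 7 arrays. Gene symbols were taken from GEO's annotation of the platform; 202 of 203 Entrez identifiers were found in the RefSeq table of GRCm38.p6. The most alike arrays shared 64 of 223 values, and all 7 were kept.

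Spots were divided by the array's floor, log2 transformed with a pseudocount of 0 and averaged per gene. limma 3.58.1 (R 4.3.3) tested each gene's mean against 2 times the floor, two-sided, with Benjamini-Hochberg adjustment over 203 genes and a threshold of 0.05. Pairs of genes were tested over all 5040 pairings, two-sided and adjusted over all pairs. Both tests were checked on simulated data. For limma these were independent normal values with the same SD for all genes, without a shared array floor or rounding, so the check does not cover those features. Named genes are the 5 factors, the 3 genes most like each, the first 3 genes on the array of each list, and genes of spots beside a factor; further list members are named to complete a count. The members and lists were chosen with earlier results of these data known. Alternatives changed the floor, the threshold, the normalization, the variance model, the filter on dim spots, the position trend and the samples.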

Additional observations from a re-analysis of the deposited data

Results flagged for a closer look

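Of 11 sets of 7 values examined for a sample far from the others (deposited signal and log2 signal over floor of each factor, and the floors), 2 had one. The deposited signal of Myod1 in replicate 1, 0.31%, lay apart from the next highest, 0.10%, by a gap of 0.778 of the whole range. For Myog the replicate 1 value of 0.24% lay apart from 0.09% by 0.714 of the range. The limit used, Dixon's 95% critical value, is one that about 1 in 20 groups of independent normal values pass by chance, and both gaps lie above it. On the log2 scale relative to the floor none of the 5 factors had such a gap. Replicate 1 also had the highest floor, 0.13%, and the neighbouring spot of Mmp12 stood at 0.25% there. Other dim genes were high on that array too, among them Junb at 0.32%, Il1b at 0.31% and Mmp14 at 0.26%, against at most 0.10% elsewhere. Not all dim genes were: Il6 stood at 0.12% there and at 0.20% in replicate 7.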

How the results depend on the processing

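The calls of Mef2c above and of Myf5 below 2 times the floor held in every alternative in which the gene was fitted, and Srf was called above in all but the threshold of 3 times the floor. That threshold left 1 of 5 factors above, both in limma and on all 7 arrays, and 129 genes below. The floor at the 20th percentile also left 1 factor above 2 times the floor on all arrays. A threshold of 1.5 times the floor left 1 factor called below, with 82 genes above and 35 below, and 68 genes above it on all arrays. Fitting only genes above the median level left 0 genes, and 0 factors, called below, since that filter removes the dim genes. Leaving out each replicate in turn gave 2 to 3 factors below, the call lost being that of Myod1, and leaving out replicates 1 and 5 together, an alternative chosen after seeing the data, kept 2 above and 3 below. Among pairs of factors, 6 passed in log2 deposited values, where 46.2% of all pairs of genes did. It was 0 with quantile normalization, with array medians taken off and with the position trend removed, and 0 without any single replicate. The SD in log2 deposited values was 1.01 for Myod1, 0.97 for Myog and 0.98 for Myf5. Myog lost its call at 1.5 times the floor only. No sign changed for any factor against the threshold. Steps of 0.01% limit ratios on the arrays with low floors. No paired analysis was possible because the series has 1 group.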

Other observations

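Counts for other regulators stand beside 26.1% of all genes called above 2 times the floor and 39.4% below. Of the 8 immediate early and cell cycle genes, 0 were called above 2 times the floor, 4 below (Junb, Ccna2, Ccnd1 and Cdkn1a) and 4 were not called in limma. Jun, an AP-1 factor, exceeded 2 times the floor on 6 of 7 arrays at 0.153% ± 0.0355 (SD, n = 7) and was not called (log2 difference 0.48, limma, adjusted p = 0.102). Of the 5 listed transcription factors outside the muscle families, the hypoxia factor Hif1a, the adipocyte factor Pparg and the mitochondrial factor Tfam were called below, and Arnt and Ppara were not called.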
